A study of Mus musculus with 10 samples.

Results

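Ferritin and its partners in iron uptake, storage, export and sensing were followed as a set of 10 genes, taken by symbol from a table of 36144 genes in cultured mouse aortic smooth muscle cells. The genes were Fth1, Ftl1, Tfrc, Slc40a1, Slc11a2, Ncoa4, Aco1, Ireb2, Steap3 and Cp, and all 10 were present and had a mean of at least 1 TPM. TPM, a level relative to the sum over all transcripts and corrected for transcript length, lets levels be compared between genes. The set was chosen because the abundant Fth1 and Ftl1 stood higher in Adamts7 overexpression cultures. The difference between genotypes in these 10 genes is therefore given as a description, with no test.

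RNA came from 3 wild-type and 3 overexpression male mice, each 8 weeks old, with 1 library per mouse. The overexpression mice carried Myh11-Cre-ERT2, a smooth muscle Cre driver that acts when tamoxifen is given, together with the VSMC-specific Adamts7 overexpression. For the wild-type mice the labels name no driver, and no label mentions tamoxifen treatment. Driver, any tamoxifen and overexpression therefore cannot be told apart. The titles of the overexpression RNA samples begin with the wild-type abbreviation, and their group was taken from the genotype label. Cells were grown from the aortic media and used between passages 2 and 7, with the passage of each library not given. ATAC-seq, which reads open chromatin, covered 2 mice of each genotype, pooled by genotype in the deposited scores.

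Cells store iron inside a hollow shell of ferritin heavy chains, which oxidise iron, and light chains, which help it to mineralise. Iron enters bound to transferrin, is reduced and released from endosomes, and leaves through ferroportin, while the iron regulatory proteins bind hairpins in ferritin, ferroportin and transferrin receptor messages when iron is scarce. Most of that control acts on translation of ferritin and ferroportin and on decay of the receptor message, so RNA levels show only a share of it. In the vessel wall, macrophages that clear dying cells and red cell debris are known for high ferritin and ferroportin.

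The annotated starts of the ferritin pair are shown because these were the 2 most abundant genes of the set and stood higher in the same libraries. The sequences are the 250 bases before an annotated start, from RefSeq on GRCm38.p6 (mm10), written in the direction of the gene. Capitals mark CCAAT boxes (CCAAT or its reverse complement, the letters bound by NF-Y) and GC boxes (GGGCGG or its reverse complement, the letters bound by Sp1).
Fth1, chr19:9982396-9982645, plus strand: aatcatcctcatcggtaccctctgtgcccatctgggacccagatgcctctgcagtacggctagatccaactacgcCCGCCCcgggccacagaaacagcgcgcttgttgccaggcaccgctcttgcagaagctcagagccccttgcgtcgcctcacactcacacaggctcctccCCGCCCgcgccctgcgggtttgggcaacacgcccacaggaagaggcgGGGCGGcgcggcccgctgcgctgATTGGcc
Ftl1, chr7:45459887-45460136, minus strand: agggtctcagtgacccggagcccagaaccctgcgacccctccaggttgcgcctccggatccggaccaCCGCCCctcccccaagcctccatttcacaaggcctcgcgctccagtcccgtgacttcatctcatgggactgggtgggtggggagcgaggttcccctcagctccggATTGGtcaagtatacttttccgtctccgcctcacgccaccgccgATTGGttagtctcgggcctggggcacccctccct
The Fth1 stretch held 1 CCAAT box, whose first base lay at -7 from the annotated start, and 3 GC boxes, at -175, -77 and -30. The Ftl1 stretch held 2 CCAAT boxes, at -78 and -34, and 1 GC box, at -183. Over 32851 such windows of the mouse genome, 33.8% held a CCAAT box and 32.7% a GC box, so these letters are common. In both genes the letters TATAA, searched as read, came after the annotated start, at base 27 in Fth1 and base 18 in Ftl1, counting the start as base 1. Neither stretch held the letters TGACNNNGC of the antioxidant response element, TGANTCA of an AP-1 site (which can share letters with the former) or CACGTG of an E-box, searched on both strands and held by 10.2%, 6.75% and 6.02% of windows. A further annotated start of Fth1 lies upstream, and the 250 bases before it, with 34.8% G and C against 66.8% in the stretch shown, held none of these motifs. Of the 10 genes, 8 had a window, all but Slc40a1 and Slc11a2, and TGACNNNGC was found in 1 of the 8, before a start of Ncoa4 at -44. Sequence outside the windows was not searched, so elements farther from a start would be missed. A match is only a run of letters.

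Adamts7 itself stood at 6.08, 6.18 and 8.20 TPM in wild-type libraries 1, 2 and 3 and reached 98.7, 79.1 and 75.8 TPM with overexpression (limma log2 fold change 3.45 ± 0.14 SE, adjusted p = 0.000357). Only 2 of the 13131 genes tested had an adjusted p under 0.05, 0.0152%, whereas 19.5% had an unadjusted p under 0.05. Smooth muscle markers were present in all libraries, with a summed level of 4235 to 4379 TPM over 10 genes in wild type and 4946 to 6772 TPM in overexpression. Cald1, Acta2 and Tagln held the largest wild-type means, at 1554, 1249 and 839 TPM. Of the 10, 9 had a positive and 1, Smtn, a negative log2 fold change, with a median of 0.49. Markers of other cell types were also present, and no marker of these lists was at 0 in all libraries. The 10 endothelial markers summed to 4409 to 4912 TPM in wild type, above the smooth muscle sum there. In overexpression they summed to 2258 to 3726 TPM, below the smooth muscle sum. Of these 10 genes, 9 had a negative log2 fold change and 1, Vwf, a positive one. Sums over different genes do not give shares of cells. The 20 macrophage markers summed to 534 to 785 TPM in wild type and 1263 to 4035 TPM in overexpression. Fibroblast markers summed to 159 to 178 TPM and 210.1 to 479 TPM, of which Col1a1 held a mean of 122 and 313 TPM. Of the 5 fibroblast markers tested, 2 had a positive and 3 a negative log2 fold change, with a median of -0.096. In these bulk samples fewer cells of a type and less RNA per cell cannot be told apart.

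Fth1, the ferritin heavy chain (chromosome 19, 9980600 to 9985111), ranked 16 of all genes by wild-type level. It stood at 4047, 4294 and 3879 TPM in wild-type libraries 1 to 3 and at 6225, 5463 and 4301 TPM in overexpression libraries 1 to 3. All 3 overexpression libraries lay above wild type, but library 3 exceeded the highest wild-type library by a small margin only. The means were 4073 ± 209 and 5329.7 ± 969 TPM (SD, n = 3 each). On the log2(TPM + 1) scale, used for all fold changes here, the difference was 0.37 ± 0.13 (SE).

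Ftl1, the ferritin light chain (chromosome 7, 45457944 to 45459886), ranked 21. It stood at 2797, 3805 and 3385 TPM in wild type and at 5035, 4868 and 3665 TPM in overexpression. The groups overlapped, since overexpression library 3 lay below wild-type library 2. The means were 3329 ± 506 and 4523 ± 747 TPM (SD, n = 3 each), and the log2 difference was 0.44 ± 0.15 (SE). Ferritin genes have many processed copies, which can take or lend reads. Of 14 further rows whose symbol starts with Fth or Ftl, 9 were listed at 0 in every library, and only the pseudogene Ftl1-ps1 reached a mean of 1 TPM. It held 1.93% to 2.53% of the Ftl1 level, at 63.9, 96.4 and 82.7 TPM in wild type and 96.9, 119 and 80.2 TPM in overexpression, and how reads were divided between it and Ftl1 was not tested.

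Together the 2 ferritin chains made up 0.684%, 0.810% and 0.726% of all TPM in wild type and 1.13%, 1.03% and 0.797% in overexpression. Overexpression libraries 1 and 2 thus lay above every wild-type library, and library 3 lay within their range. The mean share was 0.740% ± 0.064 and 0.985% ± 0.170 (SD, n = 3 each). The ratio of Fth1 to Ftl1 in TPM was 1.45, 1.13 and 1.15 in wild type and 1.24, 1.12 and 1.17 in overexpression. These ranges overlapped, with means of 1.24 ± 0.18 and 1.18 ± 0.057 (SD, n = 3 each), and the highest ratio belonged to wild-type library 1, whose Ftl1 was lowest. Without that library the sign of the difference turned, from -0.063 to 0.040.

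**Figure D1:**
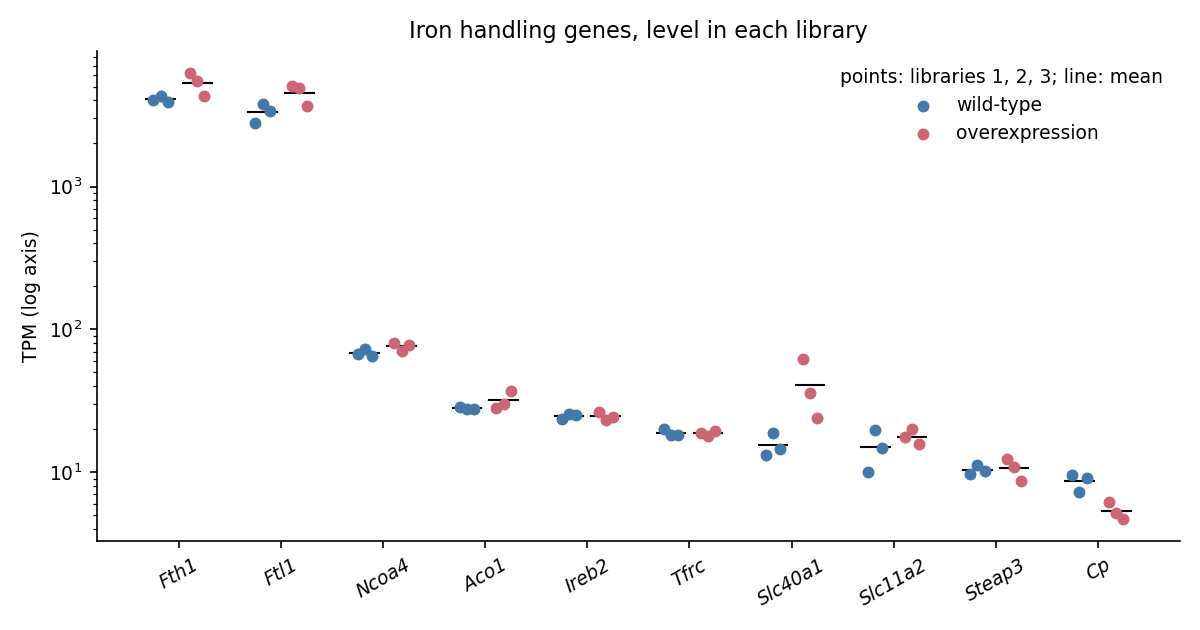
Level of the 10 iron genes in TPM (log axis) in each of the 3 wild-type (blue) and 3 overexpression (red) libraries, with points from left to right for libraries 1 to 3 and a line at the mean. Fth1 and Ftl1 lie far above the other 8 genes, which stay at or below 79.9 TPM, and Slc40a1 and Cp part most clearly between genotypes.

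Slc40a1 encodes ferroportin, the exporter that carries iron out of the cell (chromosome 1, 45908070 to 45926532). It stood at 13.2, 18.9 and 14.5 TPM in wild type and at 62.0, 36.1 and 24.2 TPM in overexpression. All overexpression libraries lay above wild type, and they differed among themselves more than for any other of the 10 genes, with a coefficient of variation of 47.4%. The means were 15.5 ± 2.98 and 40.7 ± 19.3 TPM (SD, n = 3 each), and the log2 fold change of 1.25 ± 0.31 (SE) was the largest of the set. Relative to the wild-type mean the 3 overexpression libraries stood 4.00, 2.33 and 1.56 times as high, against 1.53, 1.34 and 1.06 times for Fth1 and 1.51, 1.46 and 1.10 times for Ftl1. All 3 genes were highest in library 1 and lowest in library 3.

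The 20 macrophage markers followed that order, with summed levels of 5.98, 4.79 and 1.87 times the wild-type mean in overexpression libraries 1, 2 and 3. All 20 stood above wild type in every overexpression library, where 14.3% of all genes tested did so, and none had an adjusted p under 0.05. Their median log2 fold change was 1.59, against -0.0090 over all genes tested. The part of the macrophage markers in the ferritin and ferroportin differences was not tested. Erythroid markers were low, with 8 genes summing to 4.33 to 8.35 TPM over all libraries.

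Cp encodes ceruloplasmin, a copper ferroxidase that oxidises the iron exported by ferroportin (chromosome 3, 19956933 to 20009750). It stood at 9.65, 7.23 and 9.17 TPM in wild type and at 6.21, 5.22 and 4.75 TPM in overexpression. All overexpression libraries lay below wild type, the only such case among the 10 genes. The means were 8.69 ± 1.28 and 5.39 ± 0.75 TPM (SD, n = 3 each), and the log2 difference was -0.60 ± 0.14 (SE). Unlike the ferritin pair, the value was farthest from wild type in overexpression library 3, at 0.546 times the wild-type mean, against 0.715 and 0.601 times in libraries 1 and 2. Endothelial markers, with a median log2 fold change of -0.50, were lowest in library 2, and their part in the Cp values was not tested.

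**Figure D2:**
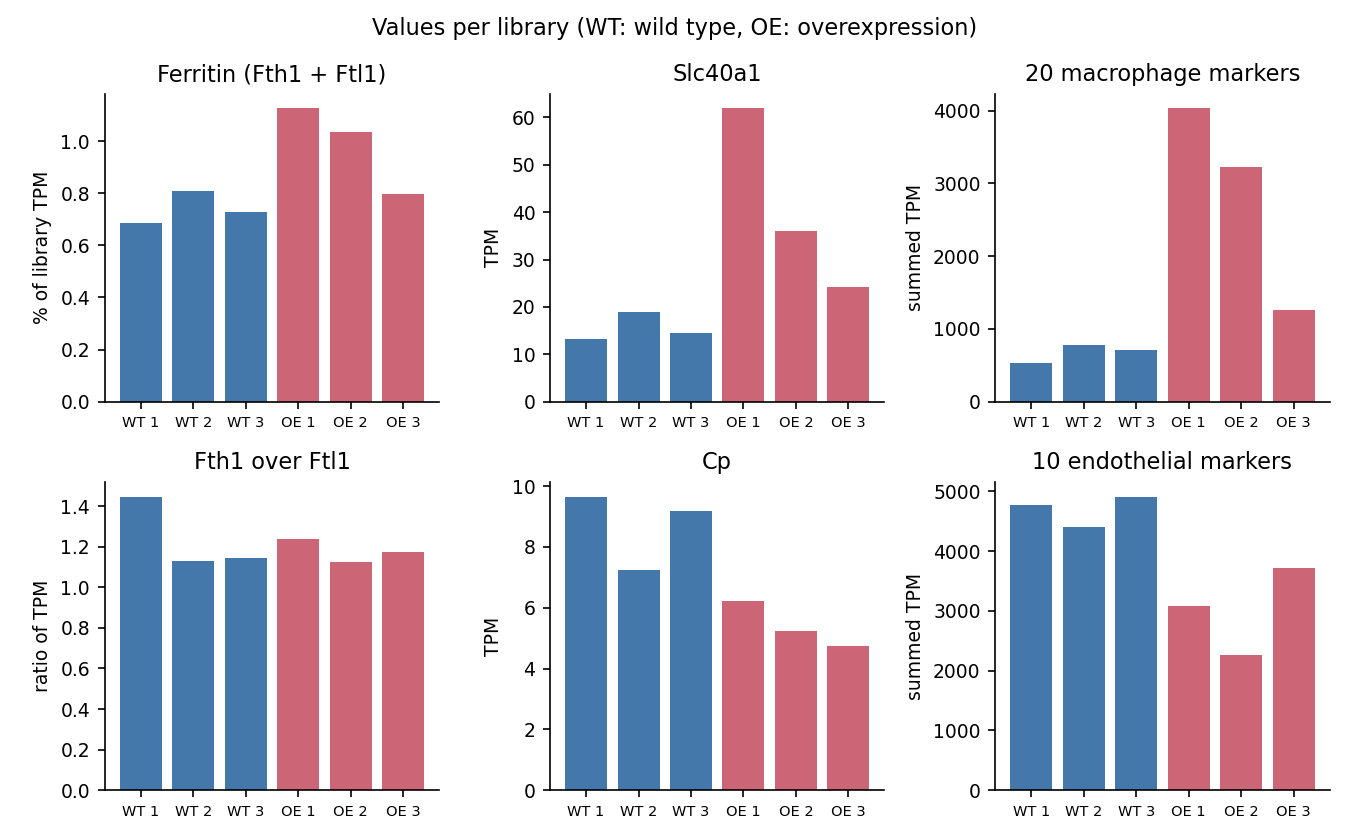
Values in each library (WT, wild type; OE, overexpression): ferritin as a percent of all TPM, the Fth1 to Ftl1 ratio, Slc40a1 and Cp in TPM, and the summed TPM of 20 macrophage and 10 endothelial markers. Ferritin, Slc40a1 and macrophage markers are highest in OE 1 and, among overexpression libraries, lowest in OE 3, whereas Cp is lowest in OE 3 and endothelial markers in OE 2.

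For the genes of iron uptake the libraries of the genotypes overlapped. Tfrc, the transferrin receptor (chromosome 16, 32608896 to 32632794), was at 20.2, 18.2 and 18.3 TPM in wild type and 18.8, 17.9 and 19.5 TPM in overexpression, a log2 fold change of -0.013 ± 0.081 (SE). Its libraries overlapped, and its level varied by 6.01% and 4.50% (coefficient of variation) within the genotypes. Slc11a2 encodes the transporter DMT1, which moves ferrous iron out of endosomes (chromosome 15, 100387898 to 100424209). It was at 10.1, 19.9 and 14.9 TPM in wild type and 17.6, 20.0 and 15.7 TPM in overexpression, with a log2 fold change of 0.28 ± 0.22 (SE) and the widest wild-type spread of the set, 32.8%. Steap3, an endosomal ferrireductase (chromosome 1, 120226414 to 120271081), was at 9.78, 11.2 and 10.3 TPM in wild type and 12.3, 11.0 and 8.66 TPM in overexpression, with a log2 fold change of 0.017 ± 0.13 (SE). The Slc11a2 difference was 0.037 without wild-type library 1, the lowest, and 0.49 without wild-type library 2, the highest. The wild-type value of Steap3 varied less than its overexpression value.

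The libraries of the sensors and of the ferritin receptor overlapped as well. Aco1 encodes the iron regulatory protein that doubles as cytosolic aconitase (chromosome 4, 40143265 to 40199009), and was at 28.7, 27.6 and 27.9 TPM in wild type and 28.4, 29.9 and 37.2 TPM in overexpression. The wild-type spread was 1.97%, the narrowest of the set, and without overexpression library 3, the highest, the log2 fold change was 0.053. Ireb2, the other iron regulatory protein (chromosome 9, 54862658 to 54912534), was at 23.6, 25.6 and 25.3 TPM in wild type and 26.3, 23.1 and 24.5 TPM in overexpression. Their log2 fold changes were 0.17 ± 0.11 and -0.012 ± 0.080 (SE). Ncoa4, the receptor that brings ferritin to the lysosome for breakdown (chromosome 14, 32159879 to 32179855), was at 67.8, 72.8 and 65.4 TPM in wild type and 79.9, 71.1 and 77.6 TPM in overexpression. Its groups overlapped, and its log2 fold change was 0.15 ± 0.073 (SE).

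By wild-type level the order was Fth1, Ftl1, Ncoa4, Aco1, Ireb2, Tfrc, Slc40a1, Slc11a2, Steap3 and Cp. The mean of Ftl1 was 48.5 times that of Ncoa4, the next gene, and the libraries of neighbours overlapped for Tfrc with Slc40a1, Slc40a1 with Slc11a2 and Slc11a2 with Steap3. In overexpression Slc40a1 came after Ncoa4, at place 4, and the other 9 genes kept their order. Neighbours that overlapped were then Fth1 with Ftl1, Slc40a1 with Aco1 and Tfrc with Slc11a2.

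Across the 10 genes 7 had a positive and 3 a negative log2 fold change, with a median of 0.16. No gene of the set had an adjusted p under 0.05, where 0.0152% of all genes did, and 4 had an unadjusted p under 0.05, where 19.5% did. Of these, 3 were higher and 1 lower, where 10.6% and 8.94% of all genes were. Libraries did not overlap between genotypes for 3 genes, where this held for 27.2% of all genes tested. Of these, 2 lay above and 1 below wild type, where 14.3% and 12.9% of all genes did. Because the set was chosen on this contrast, nothing is read from these counts. Without overexpression library 3 the log2 fold changes were 0.52 for Fth1, 0.58 for Ftl1, 1.56 for Slc40a1 and -0.52 for Cp.

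**Figure D3:**
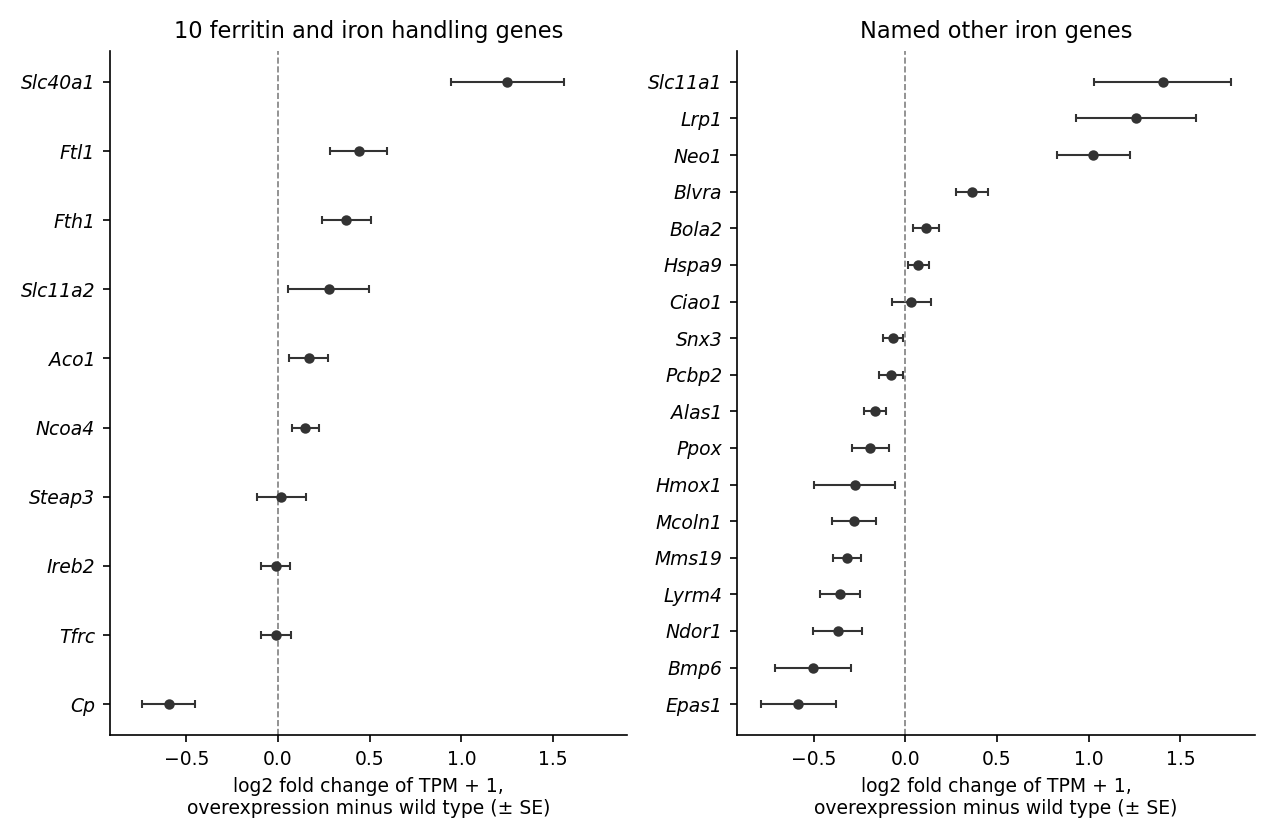
Log2 fold change on the log2(TPM + 1) scale, overexpression minus wild type, with its standard error, for the 10 iron genes (left) and other iron genes named in the text (right), 3 libraries per genotype. Slc40a1 at 1.25 and Cp at -0.60 mark the ends of the left panel, and Slc11a1 at 1.40 and Epas1 at -0.59 those of the right panel.

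Unlike the set above, the rest of the iron pathway was tested. Its lists were also made with earlier results of these data known, so the choice of genes was not blind to the data. A list of 97 symbols, some of them older names of 1 gene, had 91 rows in the table, of which 74 reached a mean of 1 TPM. With limma and Benjamini-Hochberg adjustment over all genes, 0 of 74 passed the threshold, and the smallest adjusted p was 0.128. At an unadjusted p under 0.05 there were 6 higher and 6 lower, 16.2% of the list against 19.5% of all genes. Libraries did not overlap for 17 genes, 23.0% against 27.2%, and the median log2 fold change was 0.0085. Both shares lay somewhat below the background.

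Slc11a1 encodes NRAMP1, the iron and manganese transporter of the macrophage phagosome. It stood at 8.82, 13.1 and 14.2 TPM in wild type and 54.3, 36.6 and 17.7 TPM in overexpression, with a log2 fold change of 1.40 ± 0.37 (SE) and adjusted p = 0.142 (limma). All overexpression libraries lay above wild type, in the order that Slc40a1 and the macrophage markers showed. Of the 9 tested genes of uptake and endosomal release, Slc11a1 was the 1 with an unadjusted p under 0.05. That is 11.1% of this list, against 19.5% of all genes. Mcoln1, a lysosomal channel that releases iron, had -0.28, or -0.15 without overexpression library 2, and Snx3, which recycles the transferrin receptor, -0.067.

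Among export, hepcidin and sensing genes 6 were tested, with 1 higher and 1 lower at an unadjusted p under 0.05. In so short a list this is 33.3%, against 19.5% of all genes. Neo1 encodes neogenin, a receptor that joins hemojuvelin and BMP signalling, and stood at 12.4, 12.0 and 11.9 TPM in wild type and 25.0, 35.5 and 19.0 TPM in overexpression (log2 fold change 1.02 ± 0.20 SE, limma adjusted p = 0.128). Here library 2 was the highest, unlike Slc40a1. Bmp6, the endothelial signal that raises hepcidin in the liver, stood at 218, 228 and 229 TPM in wild type and 169, 111 and 211 TPM in overexpression (-0.51 ± 0.21 SE, adjusted p = 0.243). Its lowest library, number 2, was the one with the lowest endothelial markers, and without it the value was -0.25. Hepcidin itself, Hamp, was at or below 0.55 TPM in all libraries and was not tested.

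Of 10 tested genes of heme uptake, breakdown and export, 3 had an unadjusted p under 0.05, all higher. This is 30% against 19.5% of all genes for either direction and 10.6% for higher alone. Lrp1, a large endocytic receptor that takes up heme bound to hemopexin among many other ligands, stood at 54.2, 56.0 and 42.2 TPM in wild type and 129, 195 and 71.5 TPM in overexpression (log2 fold change 1.26 ± 0.33 SE, limma adjusted p = 0.140). All overexpression libraries lay above wild type. Blvra, biliverdin reductase, stood at 25.3, 24.6 and 25.6 TPM in wild type and 36.0, 29.8 and 32.4 TPM in overexpression, with 0.36 ± 0.085 (SE) and adjusted p = 0.131 (limma), while the other was the heme exporter gene Flvcr1 with 0.27, named after its values were seen. Hmox1, heme oxygenase 1, which frees iron from heme, stood at 382, 421 and 392 TPM in wild type and 414, 221 and 386 TPM in overexpression. Its value of -0.28 ± 0.22 (SE) rested on overexpression library 2, without which it was 0.0062. Cd163, the macrophage receptor for hemoglobin bound to haptoglobin, was at or below 0.051 TPM in all libraries and was not tested.

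Of 8 tested heme synthesis genes 2 had a positive and 6 a negative log2 fold change, with a median of -0.10. Alas1, the first enzyme of heme synthesis, stood at 133, 138 and 131 TPM in wild type and 113, 123 and 124 TPM in overexpression (log2 fold change -0.17 ± 0.062 SE, limma adjusted p = 0.214), the only 1 of the 8 with an unadjusted p under 0.05, which is 12.5% against 19.5% of all genes. Ppox, a late enzyme of that path, had -0.19. Among 23 tested mitochondrial iron and iron-sulfur genes 1 was lower at an unadjusted p under 0.05, where 8.94% of all genes were lower. It was Lyrm4, which stabilises the cysteine desulfurase. Lyrm4 stood at 9.26, 7.74 and 8.74 TPM in wild type and 6.14, 6.37 and 6.94 TPM in overexpression, with -0.35. The chaperone Hspa9 had 0.070.

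Of 9 tested genes of cytosolic iron-sulfur assembly, 2 had an unadjusted p under 0.05, both lower, which is 22.2% against 19.5% of all genes for either direction. Mms19, which delivers clusters to DNA repair enzymes, stood at 25.6, 26.9 and 28.7 TPM in wild type and 21.1, 21.0 and 22.5 TPM in overexpression (log2 fold change -0.32 ± 0.077 SE, limma adjusted p = 0.131). Ndor1, a reductase of this machinery, had -0.37 and Ciao1, a subunit of the complex that targets clusters to proteins, 0.033. None of 6 tested iron chaperone and ferritin turnover genes had an unadjusted p under 0.05, against 19.5% of all genes. Pcbp2, which hands iron to ferritin, had -0.080 and Bola2 0.11. Among 3 other transcripts known to carry an iron responsive hairpin, Epas1, the hypoxia factor HIF-2 alpha that endothelial cells express strongly, stood at 305, 285 and 277 TPM in wild type and 195, 139 and 263 TPM in overexpression (-0.59 ± 0.20 SE, adjusted p = 0.197, limma). As with Bmp6, the lowest library was overexpression library 2, which also had the lowest endothelial markers, and without it the Epas1 value was -0.35. The smooth muscle marker sum was 5440, 6772 and 4946 TPM in overexpression libraries 1 to 3. Neo1, Lrp1 and the fibroblast marker sum were likewise highest in library 2 and lowest in library 3 among overexpression libraries. The part of endothelial, macrophage, smooth muscle and fibroblast markers in these values was not tested.

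With all 6 libraries none of the 74 other iron genes passed, and calls among them appeared only when overexpression library 3 was left out. Without that library limma called 828 of all genes, 6.3% of those tested, and 4 of the 74. For these 4 genes the library left out was the overexpression library closest to wild type. Slc11a1 then had a log2 fold change of 1.83 (adjusted p = 0.00861), Lrp1 1.64 (0.00713), Neo1 1.23 (0.00745) and Epas1 -0.81 (0.023). Leaving out any other single library called none of the 74. Over all alternatives the adjusted p ran up to 0.354 for Slc11a1 and Neo1, 0.362 for Lrp1 and 0.386 for Epas1.

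Footprints at antioxidant response elements bear on ferritin because NRF2 and BACH1, which share these elements with small MAF proteins, are known to act on ferritin and heme oxygenase genes. The authors' deposited table gives 1 mean footprint score per motif and genotype over pooled libraries, so there is no replicate error. All 9 motifs named for NFE2, NFE2L, BACH or MAFK factors scored higher in overexpression in the authors' deposited table, where 56.4% of all 879 motifs did. BACH1 went from 0.249 to 0.314, with 14.4% and 19.7% of 41592 sites called bound, and the NRF2 motif Nfe2l2 from 0.237 to 0.263, with 11.7% and 14.3% of 38257 sites, in the authors' deposited table. The deposited change score, with its sign turned so that higher means overexpression, was 0.21 to 0.62 for the 9 motifs against a median of 0.11 over all motifs in the authors' deposited table. By size of change BACH1 ranked 16 and Nfe2l2 278 of all motifs. Of the 9 motifs 3, namely BACH1, 1 of the 2 BACH2 motifs and NFE2, fall in the deposited cluster of the AP-1 motif FOSL1, with which they share letters, and 5 fall in that of MAFG::NFE2L1. The table does not place sites at genes, so the scores are not those of ferritin genes.

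**Figure D4:**
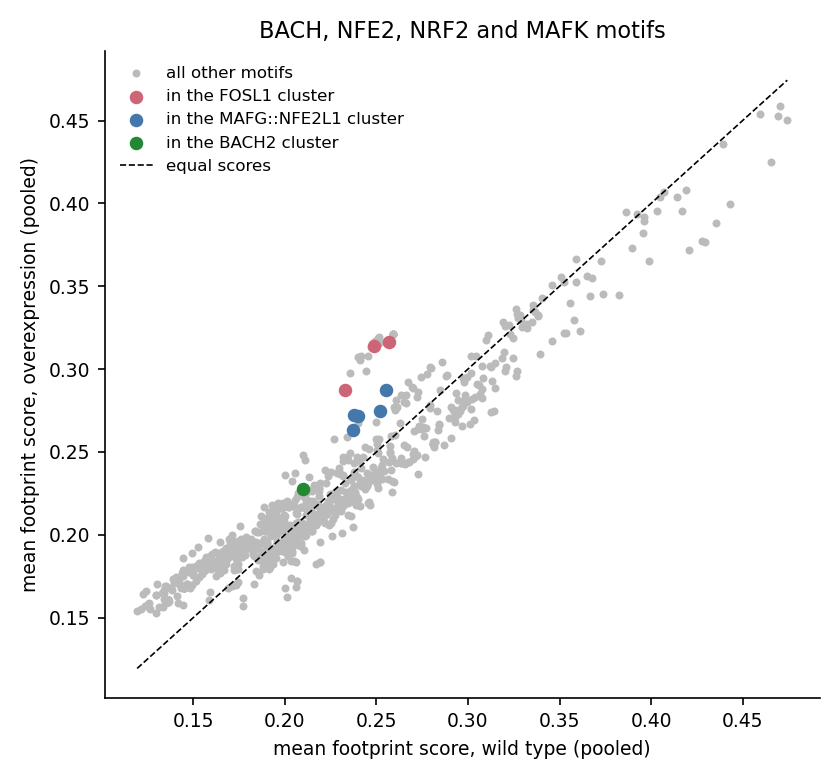
Mean footprint score of each of 879 motifs in pooled wild-type (x axis) and pooled overexpression (y axis) cultures from the authors' deposited table, with 9 BACH, NFE2, NRF2 and MAFK motifs coloured by deposited cluster and a dashed line at equal scores. All 9 lie above the line, as do 56.4% of all motifs, and of the 9 the 3 in the FOSL1 cluster lie farthest from it.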

How the data were processed

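RNA-seq of 3 wild-type and 3 overexpression cultures was deposited by the authors as TPM per gene from kallisto, per the labels. TPM total 1000000 in every library, so values are relative and read depth is unknown. The submitters' processing notes name mm10; sources used here do not give the kallisto version or annotation. All labels give batch 1. For ATAC-seq the authors deposited, per the file headers, footprint scores, counts of sites searched and bound, a change score and a p-value per motif over pooled mice.

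After a filter (mean of 1 TPM or more), log2(TPM + 1) values were fitted in R 4.3.3 using limma 3.58.1 (eBayes with trend), two-sided, with Benjamini-Hochberg adjustment over 13131 genes and a threshold of 0.05. Positions and sequences are RefSeq's on GRCm38.p6. The 10 genes and all lists were chosen with earlier results of these data known. Named are Adamts7, the 10 genes, and from each of 8 lists of other iron genes the most abundant and the 2 of smallest p, with the closest 5 genes to Fth1 and to Ftl1 over libraries; some of these are not reported here. P-values set the difference between genotypes against the spread between libraries within a genotype. In that spread mouse, culture and passage cannot be told apart. The fit was tested on simulated data. Replicate numbers name separate mice and were not used as pairs. Tables and figures used Python 3.11.15.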

Additional observations from a re-analysis of the deposited data

How the results depend on the processing

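Under a pseudocount of 0.1, no filter on low genes, a minimum mean of 5 TPM, median-of-ratios scaling, a total without mitochondrially encoded genes and a replicate block, the log2 fold changes of the 10 iron genes moved by less than 1 SD between replicates, and none of the 74 other iron genes was called. Genes called over the whole table numbered 2, and 1 with a minimum mean of 5 TPM. With the mouse number as a replicate block 1 gene was called; same-numbered mice deviated with correlations of -0.022, 0.058 and 0.018, not every library correlated best with its own number, and the numbers do not pair the samples. Leaving out 1 library at a time gave 1 to 828 called genes and 0 to 4 other iron genes, with 828 and 4 only without overexpression replicate 3. It gave 8 to 18 other iron genes at an unadjusted p under 0.05. It also gave log2 fold changes of 0.25 to 0.52 for Fth1, 0.32 to 0.58 for Ftl1, 0.90 to 1.56 for Slc40a1 and -0.71 to -0.52 for Cp, a ferritin share difference of 0.175 to 0.339 percentage points and a heavy to light ratio difference of -0.119 to 0.040. Signs turned for Hmox1, which ran from -0.44 to 0.0062, the latter without overexpression replicate 2, and for Ciao1, which ran from -0.049, without wild-type replicate 1, to 0.13. They also turned for Tfrc (-0.042 to 0.034), Ireb2 (-0.059 to 0.032) and Steap3 (-0.085 to 0.15), all near 0; the cause was not tested. TPM keep no read number, so what depth limits is unknown.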

Other observations

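Genes whose level over the 6 libraries was most like ferritin were taken from 8766 genes whose mean was 10 TPM or more, by Pearson correlation of log2(TPM + 1). These values are a description over 6 libraries that share the difference between 2 genotypes, so they carry no p. For Fth1 the 5 genes were Npc1, which exports cholesterol from lysosomes (0.995), the immune checkpoint gene Vsir (0.993), Gpnmb, a membrane glycoprotein of macrophage lysosomes (0.993), the TGF-beta receptor gene Tgfbr1 (0.992) and Abr (0.992). Gpnmb stood at 342, 370 and 333 TPM in wild type and 684, 528 and 355 TPM in overexpression, in the same order within each genotype as Fth1, with overexpression library 3 inside the wild-type range. Vsir stood at 9.61, 12.3 and 9.95 TPM in wild type and 39.9, 29.2 and 13.8 TPM in overexpression. For Ftl1 the 5 genes were the mitochondrial ribosome gene Mrps26 (0.995), the dynactin gene Actr10 (0.993), the dipeptidase gene Cndp2 (0.991), Gusb, a lysosomal glucuronidase (0.989), and the cytokine receptor gene Il10rb (0.987). Gusb stood at 72.7, 84.7 and 78.6 TPM in wild type and 104, 102 and 86.8 TPM in overexpression. The 2 groups of 5 share no gene.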
